A study of Mus musculus with 10 samples.

Results

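Lysosome genes and the regulators of TFEB and TFE3 were followed in mouse embryonic stem cells that carry the ANKRD11 Y347A mutation. The group held 39 named genes of the 55401 in the deposited table, each taken as the row whose gene name equals the listed symbol. They comprised 22 hydrolases, 2 soluble cofactors, 6 membrane proteins, 8 regulators of the TFE3-folliculin pathway and the autophagy receptor Sqstm1. Of the 39, 38 had a mean of at least 1 TPM (a level corrected for transcript length and library total) over the 10 libraries and were tested. The exception was the sulfatase Arsb, at a mean of 0.578 TPM.

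The cells were E14, an established mouse embryonic stem cell line, and all groups were labelled untreated. Wild-type E14 cells gave 4 libraries in 2 numbered sets, and E14 cells edited with CRISPR/Cas9 to carry ANKRD11 Y347A gave 6 libraries in 3 numbered sets, with 2 libraries in each set. Polyadenylated RNA was sequenced. Nothing in the labels tells if a set stands for a clone, a culture or a day, so the p-values below measure the spread between these sets, which may be technical.

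Lysosomes are acidic organelles in which hydrolases break down proteins, sugars and lipids. Many of their genes carry a short E-box motif in the promoter, called CLEAR, that is bound by the related transcription factors TFEB, TFE3 and MITF. Folliculin, with its partner FNIP1 or FNIP2, acts on the GTPases RagC and RagD at the lysosome surface, which lets mTORC1 phosphorylate these factors and keep them in the cytoplasm. In mouse embryonic stem cells nuclear TFE3 helps to sustain self-renewal, and folliculin is needed for cells to leave the naive state.

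The summed TPM of 8 embryonic stem cell markers was 10800 to 11600 in wild-type and 9700 to 11500 in mutant libraries, led by Dppa5a and Pou5f1. Pou5f1 stood at 1220 ± 25.8 TPM in wild type and 1120 ± 76.8 in mutant cells (SD over 2 and 3 set means, as in all values below). Among these markers Nanog and Zfp42 fell, Esrrb and Tdgf1 rose, and the other 4 were not called. Markers of macrophages, which are rich in lysosomes, summed to 0.23 to 0.65 TPM in wild-type and 0.37 to 1.3 in mutant libraries over 8 genes, and Ptprc, Adgre1, Lyz2 and Tyrobp were listed at 0 in every library. Melanocyte markers, a cell type in which Mitf and Gpnmb are known, summed to 6.73 to 8.87 TPM in wild-type and 4.16 to 6.04 in mutant libraries over 5 genes, with Tyr and Tyrp1 at 0 throughout. Pmel, at 5.46 ± 0.053 TPM in wild type and 3.37 ± 0.373 in mutant cells, was called lower, and Mlana was not called. Fibroblast feeder markers summed to 4.64 to 7.25 and 5.6 to 6.68 TPM, with Postn and Dcn at 0. The part of these other cell types in the results was not tested. In bulk RNA, fewer cells of a type and less RNA per cell cannot be told apart.

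Of the 38 tested genes, 12 rose in mutant cells and 0 fell (limma on set means of log2(TPM + 1), Benjamini-Hochberg adjusted p below 0.05 over 12797 genes). That is 31.6% called higher, where 6.97% of all tested genes were called higher and 10.5% lower. At an unadjusted p below 0.05 were 22 of the 38 (57.9%), 1 of them, Ctsl, lower. Over all tested genes that share was 34.9% (14.5% higher and 20.5% lower). The median log2 fold change of the 38 genes was 0.35, against -0.04 over all tested genes, and 31 of the 38 had a positive value. The 12 genes that rose were the hydrolases Arsa, Ctsa, Ctsd, Neu1, Tpp1, Gaa and Hexa, the membrane proteins Mcoln1 and Lamp1, and the regulators Rragd, Flcn and Fnip2. Their mutant levels were 1.4 to 2.38 times the wild-type levels.

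In all 12, each of the 6 mutant libraries lay above each of the 4 wild-type libraries. The same held for 7 further genes that did not pass the test, Naglu, Sgsh, Smpd1, Npc2, Fnip1, Rragc and Sqstm1. Over all tested genes the mutant libraries all lay above in 12.4% and all below in 19.4%. The 12 genes were called from these same libraries, so their separation adds no support to the calls. Without wild-type set 2, 0 of the 38 genes passed, and without wild-type set 1 there were 7. Either omission leaves 1 wild-type set, which is assumed to vary like the mutant sets, and without wild-type set 2 the share of all genes called higher also dropped, to 0.298%. The 12 genes kept log2 fold changes of 0.31 to 1.10 without that set, with Arsa at 1.10, Ctsa at 0.89 and Ctsd at 0.78. Adding 1 before taking logs makes the fold changes of low genes too small.

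**Figure D1:**
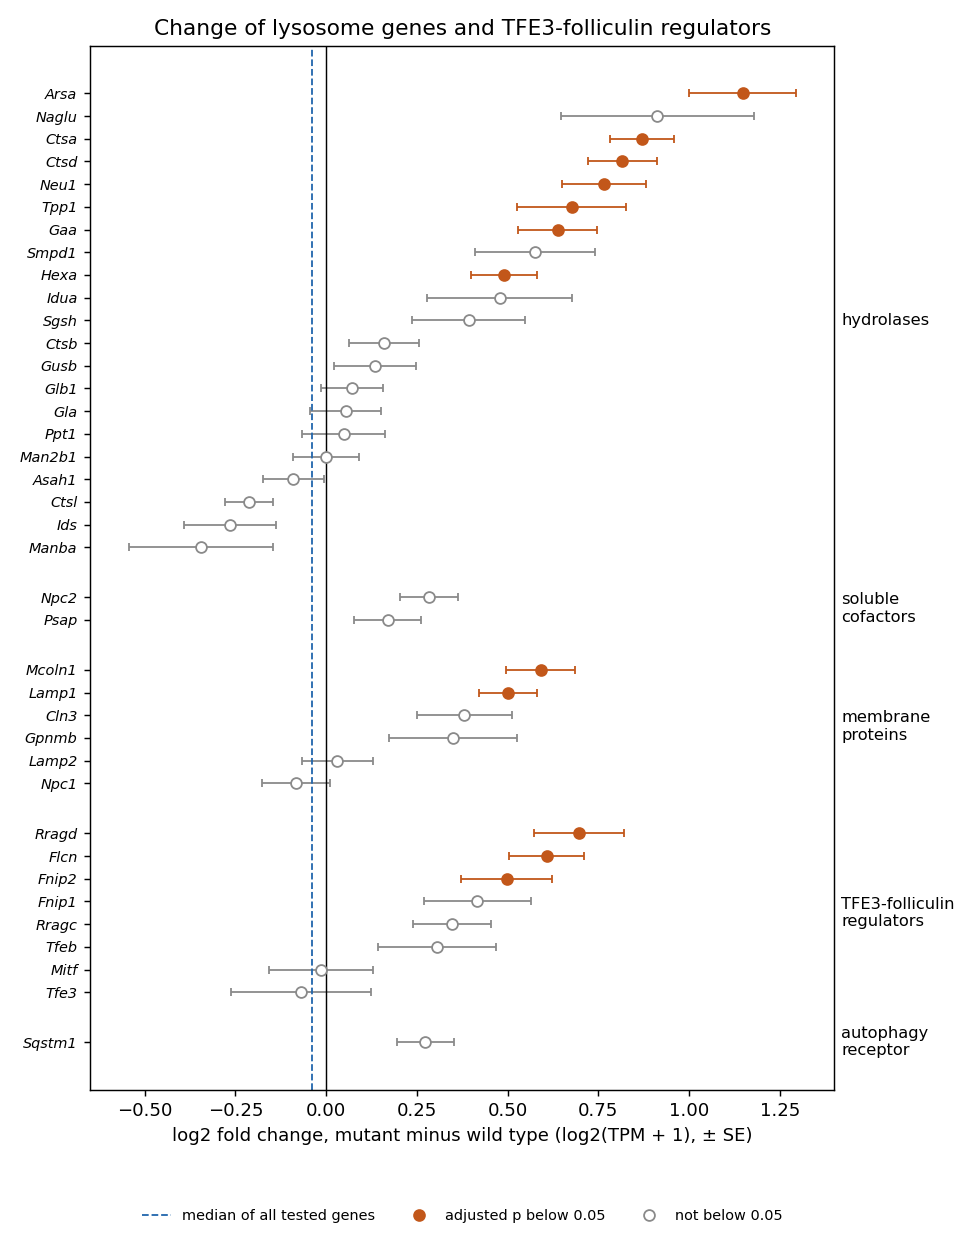
Log2 fold change (mutant minus wild type, log2(TPM + 1) scale) with its standard error for the 38 tested genes, ordered by class; filled points passed the adjusted threshold and the dashed line is the median of all tested genes, -0.04. The 12 filled points all lie to the right of 0, from 0.49 for Hexa to 1.15 for Arsa.

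Because the promoter motif is what ties lysosome genes to TFEB and TFE3, the promoters of the genes that rose were read first. RefSeq promoters (GRCm38.p6, 250 bases before to 50 after the start) were matched for 36 of the 39 genes. The 7-base motif TCACGTG, searched on both strands and holding the general E-box CACGTG within it, occurred in 13 of 36 (36.1%) and in 4.29% of 27025 genes with a promoter. Among the 12 genes that rose, 6 held it (50%), and among the 23 matched genes that were not called, 7 held it (30.4%). The difference between these 2 shares was not tested. The shorter CACGTG alone was in 14 of 36 (38.9%) and in 8.09% of all genes. Lysosome genes are known for the motif, so its higher share in the matched genes than in all genes is no result of these data. The stretches around these matches, all before the RefSeq start, are shown for the 6 genes that rose and for 2 that did not pass, Cln3 and Gla. They are written 5′ to 3′ on the gene's strand with each match in the stretch in capitals, and with an eighth capital where the base next to it makes the motif read the same on both strands.
Arsa, chr15:89477425-89477463, minus strand: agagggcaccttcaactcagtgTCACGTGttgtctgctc
Ctsa, chr2:164833738-164833772, plus strand: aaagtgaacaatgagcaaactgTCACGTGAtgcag
Ctsd, chr7:142387897-142387948, minus strand: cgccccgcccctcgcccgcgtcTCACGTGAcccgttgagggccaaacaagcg
Gaa, chr11:119267800-119267850, plus strand: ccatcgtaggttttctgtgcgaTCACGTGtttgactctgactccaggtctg
Lamp1, chr8:13159077-13159160, plus strand: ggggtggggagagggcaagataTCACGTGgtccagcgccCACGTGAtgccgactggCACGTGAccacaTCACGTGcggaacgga
Mcoln1, chr8:3500425-3500502, plus strand: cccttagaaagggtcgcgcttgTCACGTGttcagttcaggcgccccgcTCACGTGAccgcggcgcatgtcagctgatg
Cln3, chr7:126583329-126583407, minus strand: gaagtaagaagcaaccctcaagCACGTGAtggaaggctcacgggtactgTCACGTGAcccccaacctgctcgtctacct
Gla, chrX:134601171-134601255, minus strand: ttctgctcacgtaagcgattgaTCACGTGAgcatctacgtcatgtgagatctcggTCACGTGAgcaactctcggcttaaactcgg
Lamp1 held 4 matches, the nearest 9 bases before its start, and Mcoln1 held 2. Ctsd also held 2, of which 1 is in the stretch shown. Cln3 and Gla held 2 each and did not pass the test (log2 fold changes 0.38 and 0.05). Fnip1, Glb1, Naglu, Rragc and Sgsh, which are not shown, held 1 match each and did not pass either. The other 6 genes that rose, Neu1, Tpp1, Hexa, Flcn, Fnip2 and Rragd, held no match in this window, which says only that these letters are not in it.

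Among the 21 tested hydrolases 7 rose and 0 fell at the adjusted threshold, with 12 at an unadjusted p below 0.05, 1 of them lower. Their median log2 fold change was 0.39, and 17 of 21 were positive. By mutant set, taken against the wild-type mean, the median was 0.38, 0.21 and 0.42. The 22 hydrolases, Arsb included, summed to 869 to 915 TPM in the wild-type libraries and to 1070 to 1180 TPM in the mutant libraries, so the summed levels did not overlap. Much of that difference came from Ctsa (79.3 TPM in wild type and 146 in mutant cells) and Ctsd (115 and 203 TPM). The sum therefore does not describe the class as a whole. The protease genes had a median of 0.68 (3 of 5 rose), the glycosidases 0.31 (3 of 10), the sulfatases 0.39 (1 of 3) and the lipid enzymes 0.05 (0 of 3, with 1 at an unadjusted p below 0.05). Differences between these classes were not tested.

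Arsa, the sulfatase that starts the breakdown of sulfatide, changed most of the genes that rose. Its level was 9.05, 9.27, 8.42 and 8.59 TPM in the wild-type libraries. Mutant set 1 had 24.2 and 23.8 TPM, set 2 had 16.6 and 17.6, and set 3 had 20.8 and 23.0. The mutant libraries lay above all wild-type libraries, and set 2 was the lowest of the mutant sets. The log2 fold change was 1.15 ± 0.15 (SE), with an adjusted p of 0.00734, and the call was lost without either wild-type set. Arsa lies on chromosome 15 (89472476 to 89477425, minus strand), and 18.8% of its exon bases overlap the antisense gene C230037L18Rik, which was at a mean of 1.57 TPM in wild type and 2.83 in mutant cells. How the counting treated strand is not stated, so reads from the overlap cannot be assigned to one of them.

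Ctsa encodes protective protein, or cathepsin A, which stabilises the sialidase Neu1 and beta-galactosidase Glb1 in a complex. Ctsa stood at 82.4, 73.3, 89.3 and 72.3 TPM in the wild-type libraries. The mutant libraries gave 166 and 147, 130 and 132, and 158 and 143 TPM, in the order of the sets. No library of one genotype reached the range of the other. Its log2 fold change was 0.87 ± 0.09 with an adjusted p of 0.00439, the smallest among the 38 genes. Of its exon bases 17.4% overlap Neurl2 and Pltp on the other strand, and Pltp stood at 35.6 TPM in wild type and 47.3 in mutant cells. Neu1 itself was at 12.5, 13.8, 11.3 and 11.1 TPM in wild type. The mutant sets had 21.7 and 24.7, 20.2 and 18.7, and 21.9 and 21.1 TPM. Those groups did not overlap, with a log2 fold change of 0.77 ± 0.12 and an adjusted p of 0.0106, a call that was lost without either wild-type set. Glb1 did not pass, at 40.4 ± 1.07 TPM in wild type and 42.5 ± 2.93 in mutant cells (log2 fold change 0.07, adjusted p 0.588).

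Ctsd, the aspartic protease cathepsin D, was at 119, 116, 112 and 113 TPM in wild type. The mutant sets had 225 and 226, 201 and 202, and 182 and 185 TPM. The libraries of a set were close to each other and the 3 mutant sets stood apart from one another, all above wild type (log2 fold change 0.82 ± 0.09, adjusted p 0.00617). Tpp1, the tripeptidyl peptidase lost in a childhood form of neuronal ceroid lipofuscinosis, differed between the wild-type sets, with 44.2 and 42.8 TPM against 29.1 and 31.5. Its mutant values were 62.5 and 52.3, 58.1 and 52.8, and 65.1 and 62.1 TPM. The gap from the highest wild-type to the lowest mutant library was smaller than the gap between the wild-type sets (log2 fold change 0.68 ± 0.15, adjusted p 0.0279). The call of Tpp1 was lost in 5 of 26 alternative analyses: without wild-type set 2, mutant set 1 or mutant set 3, with no filter and with no variance trend.

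Gaa, the acid alpha-glucosidase that digests glycogen, was at 28.8, 27.8, 25.6 and 24.8 TPM in wild type. Its mutant values were 46.2 and 42.1, 36.8 and 38.0, and 47.6 and 42.9 TPM, again lowest in set 2 and without overlap (log2 fold change 0.64 ± 0.11, adjusted p 0.0146). Hexa, the alpha subunit of beta-hexosaminidase, averaged 91.7 and 76.2 TPM in the wild-type sets and 120, 116 and 117 in the mutant sets. Its change was the smallest of the 12 (log2 fold change 0.49 ± 0.09, adjusted p 0.018). With no filter the calls of Gaa and Hexa were lost, as was that of Gaa without either wild-type set and that of Hexa without wild-type set 2 or mutant set 1.

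The 14 tested hydrolases that were not called ran from a log2 fold change of -0.34 to 0.91. At the upper end Naglu, which acts on heparan sulfate, was at 1.25 ± 0.159 TPM in wild type and 3.40 ± 1.34 in mutant cells, 2.71 times as high. Its mutant sets were at 4.7, 2.02 and 3.47 TPM, and that spread left the adjusted p at 0.0577. Smpd1, the acid sphingomyelinase, was at 4.46 ± 0.435 and 7.21 ± 1.34 TPM (log2 fold change 0.58, adjusted p 0.0561). The heparan sulfate enzymes Idua and Sgsh had values of 0.48 and 0.39, with adjusted p of 0.139 and 0.126. Ctsb, Gusb, Glb1, Gla, Ppt1, Man2b1 and Asah1 lay between -0.09 and 0.16.

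Ctsl, the cysteine protease cathepsin L, had its 6 mutant libraries, at 183 to 203 TPM, below its 4 wild-type libraries, at 218 to 228 TPM. Its log2 fold change was -0.21 ± 0.07 with an adjusted p of 0.0669. Ctsl was also the most abundant of the hydrolases in wild type. Of its exon bases 26.8% overlap a predicted antisense gene. The iduronate sulfatase Ids had a value of -0.26 (adjusted p 0.184) and the beta-mannosidase Manba -0.34 (adjusted p 0.26). Manba averaged 41.8 TPM in mutant set 2, near the wild-type sets at 37.8 and 43.0, and 30.4 and 25.0 TPM in mutant sets 1 and 3.

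**Figure D2:**
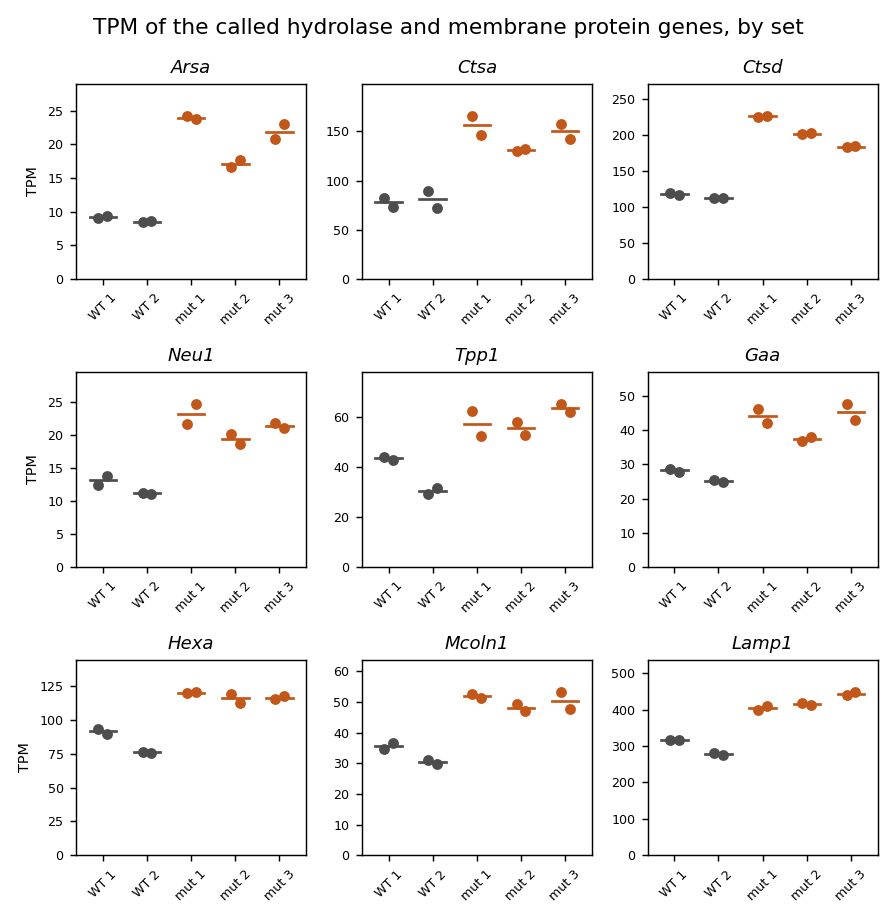
TPM in each library (points, with a line at the set mean; linear axis) by numbered set, wild type in grey and mutant in orange, for the 7 hydrolase and 2 membrane protein genes that rose. In each panel the 6 mutant points lie above the 4 wild-type points, and for Arsa, Neu1 and Gaa mutant set 2 is the lowest of the mutant sets.

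The soluble cofactors are the saposin precursor Psap and the cholesterol carrier Npc2. Neither passed the test, 1 of the 2 was at an unadjusted p below 0.05, and both values were positive. Npc2 was at 101 ± 6.26 TPM in wild type and 123 ± 7.32 in mutant cells, with all mutant libraries above wild type (log2 fold change 0.28, adjusted p 0.0535). Psap was at 161 ± 2.47 and 182 ± 17.6 TPM (0.17, adjusted p 0.233). Its mutant set 2, at 162 TPM, lay within the range of the wild-type sets.

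Of the 6 membrane proteins 2 rose and 0 fell, with 3 at an unadjusted p below 0.05 and none of these lower. Their median log2 fold change was 0.37, and their summed TPM was 384 to 440 in wild-type and 541 to 593 in mutant libraries. Lamp1, a major glycoprotein of the lysosomal membrane, made up most of that sum. It was at 316, 318, 282 and 274 TPM in the wild-type libraries. The mutant libraries were at 399 and 411, 418 and 413, and 440 and 447 TPM. The groups did not overlap, and mutant set 3 was the highest (log2 fold change 0.50 ± 0.08, adjusted p 0.0124). Of its exon bases 9.31% overlap Grtp1 on the other strand, which was at 28.4 TPM in wild type and 35.6 in mutant cells.

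Mcoln1, the calcium channel of the lysosome, was at 34.8, 36.8, 31.1 and 29.6 TPM in wild type. Mutant libraries were at 52.6 and 51.3, 49.3 and 47.0, and 53.1 and 47.6 TPM, all above wild type (log2 fold change 0.59 ± 0.09, adjusted p 0.0124). Lamp2, the partner of Lamp1, was at 48.3 ± 2.11 TPM in wild type and 49.5 ± 4.73 in mutant cells (0.03, adjusted p 0.846). The cholesterol exporter Npc1 was at 11.7 ± 0.343 and 11.0 ± 0.232 TPM (-0.08, adjusted p 0.56). Cln3 (0.38, adjusted p 0.0864) and the glycoprotein Gpnmb (0.35, adjusted p 0.203, at 1.10 and 1.68 TPM) did not pass either.

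The 8 regulators gave 3 that rose and 0 that fell, 5 at an unadjusted p below 0.05 with none of these lower, and a median log2 fold change of 0.38. The medians of hydrolases, membrane proteins and regulators were 0.39, 0.37 and 0.38, and their differences were not tested. With genes of at least 5 TPM only they were 0.15, 0.38 and 0.38, and without wild-type set 2 they were 0.36, 0.19 and 0.20. Within the regulators the 3 transcription factors had a median of -0.01, the 3 genes of the folliculin complex 0.50 and the 2 Rag GTPases 0.52.

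No transcription factor gene passed the test, and none had an unadjusted p below 0.05. Tfe3 was at 25.4, 25.8, 22.8 and 29.3 TPM in wild type. Mutant values were 24.0 and 20.2, 32.0 and 33.9, and 20.1 and 20.3 TPM, so the mutant sets lay on both sides of wild type (log2 fold change -0.07 ± 0.19, adjusted p 0.822). Tfeb was at 20.8, 18.0, 17.6 and 15.7 TPM in wild type, and at 21.2 and 20.9, 27.6 and 28.1, and 19.6 and 18.7 in the mutant. Mutant set 2 was the highest for Tfeb too (0.30 ± 0.16, adjusted p 0.227). Mitf was at 14.8, 14.6, 10.5 and 12.1 TPM in wild type and at 12.2 and 10.5, 13.2 and 12.9, and 13.7 and 14.3 in the mutant. These ranges overlapped (-0.01 ± 0.14, adjusted p 0.955). mRNA levels say nothing about where these proteins are in the cell, which is how their activity is mainly set.

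Flcn, which encodes folliculin, was at 18.7, 17.6, 14.8 and 14.9 TPM in wild type. The mutant sets had 27.1 and 24.5, 25.2 and 25.1, and 26.6 and 24.8 TPM. The 3 mutant sets averaged 25.5 ± 0.374 TPM, a narrower spread than the 2 wild-type sets (log2 fold change 0.61 ± 0.10, adjusted p 0.0146). Fnip2, one of its partners, was at 15.3, 16.0, 11.5 and 12.0 TPM in wild type and at 21.2 and 17.7, 18.2 and 20.1, and 19.5 and 20.9 in the mutant. The libraries did not overlap (0.50 ± 0.13, adjusted p 0.0395), but this call was held in only 16 of 26 alternative analyses and was lost without any one of the 5 sets. Fnip1, the other partner, was at 20.7, 19.5, 14.4 and 14.9 TPM and at 24.3 and 22.4, 21.1 and 21.1, and 24.9 and 26.3. It was higher in every mutant library but did not pass (0.42 ± 0.15, adjusted p 0.0933).

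Rragd, which encodes RagD, was at 9.8, 9.19, 7.96 and 7.39 TPM in wild type. The mutant libraries had 14.6 and 15.6, 12.7 and 13.7, and 14.7 and 15.8 TPM, without overlap and lowest in set 2 (log2 fold change 0.70 ± 0.12, adjusted p 0.0163). Its call was lost in 4 of 26 alternatives: with no filter and without wild-type set 1, wild-type set 2 or mutant set 1. Rragc, its paralog, was at 29.9, 28.3, 22.3 and 24.2 TPM and at 34.1 and 31.3, 33.1 and 32.9, and 34.1 and 34.7. All mutant libraries were above wild type, and the adjusted p was 0.0684 (0.35 ± 0.11). Sqstm1, the autophagy receptor p62, was at 105 ± 7.84 TPM in wild type and 127 ± 5.62 in mutant cells, also without overlap (0.27, adjusted p 0.0554).

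**Figure D3:**
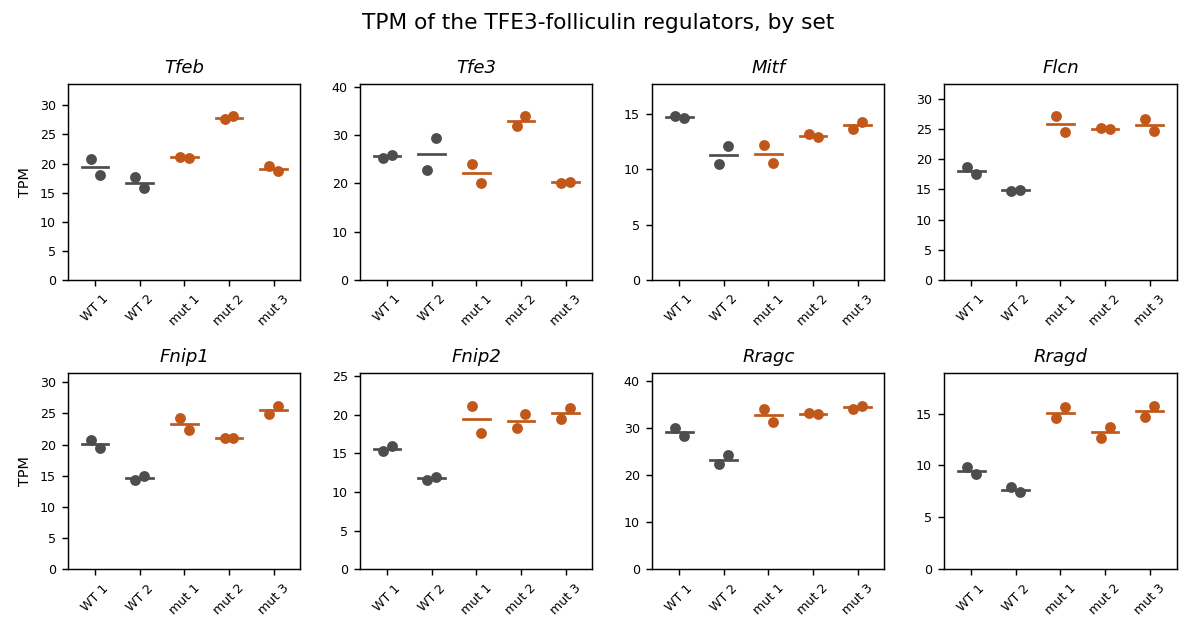
TPM in each library (points, with a line at the set mean; linear axis) by numbered set, wild type in grey and mutant in orange, for the 8 regulators. Tfeb and Tfe3 are highest in mutant set 2, while for Flcn, Fnip1, Fnip2, Rragc and Rragd all 6 mutant points lie above the 4 wild-type points.

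The order of the sets recurred across the genes. Wild-type set 1 was above wild-type set 2 in 29 of the 38 tested genes, in 11 of the 12 that rose and in 7 of the 8 regulators. Mutant set 2 was the lowest mutant set in 24 of the 38 and in 10 of the 12. The exceptions among the 12 were Lamp1, lowest in mutant set 1, and Ctsd, lowest in mutant set 3. How often this order held over all tested genes was not counted. Against the wild-type mean, the median of the 38 genes was 0.0552 and -0.0552 in wild-type sets 1 and 2. Over all tested genes it was 0.0085 and -0.0085. In mutant sets 1, 2 and 3 the medians were 0.35, 0.29 and 0.41 for the 38 genes, and -0.0625, -0.0474 and 0 for all tested genes. What sets these levels was not tested.

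Genes of the same organelle that are not among the 39 were counted in 6 further lists. In the list of other hydrolases 23 of 30 genes were tested, 7 rose and 2 fell, with a median log2 fold change of 0.30. That is 30.4% higher and 8.7% lower, beside 6.97% and 10.5% of all tested genes. At an unadjusted p below 0.05 were 15 (65.2%, against 34.9% of all genes), 3 of them lower. The 2 called lower moved most. Ctsc, the dipeptidyl peptidase that activates granule proteases, was at 35.1 ± 0.0141 TPM in wild type and fell to 14.1 ± 3.43 (log2 fold change -1.28 ± 0.17, adjusted p 0.00815). Lgmn, the asparaginyl endopeptidase legumain, fell from 47.1 ± 8.69 to 24.9 ± 2.35 TPM (-0.89 ± 0.13, adjusted p 0.0106). Without wild-type set 1, wild-type set 2, mutant set 1 or mutant set 3, the number that rose was 0, 0, 2 and 1, and it was 2 or 4 without any one of 6 single libraries: wild-type set 1 replicate 2, wild-type set 2 replicate 2, mutant set 1 replicate 1, either library of mutant set 2 and mutant set 3 replicate 2. The number that fell was 1 without wild-type set 1 and 0 without wild-type set 2.

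Among other membrane proteins, 6 of 25 tested genes rose and 1 fell, with a median of -0.04, the same as over all genes. These calls were 24% higher and 4% lower, beside 6.97% and 10.5% of all tested genes. At an unadjusted p below 0.05 were 11 (44%, against 34.9% of all genes), 2 of them lower. Besides the metal transporter Slc11a1 (log2 fold change 1.65), Cd68 rose from 17.6 ± 1.61 to 33.7 ± 5.72 TPM (a change of 0.89 ± 0.14, adjusted p 0.0124). Cd68 and Slc11a1 are best known from macrophages, whose defining markers were at or near 0 in all libraries. The cystine exporter Ctns rose from 11.8 ± 2.15 to 19.1 ± 0.974 TPM (0.65 ± 0.12, adjusted p 0.0187). Ostm1, the beta subunit of the chloride transporter ClC-7, was the gene that fell (-0.58 ± 0.09, adjusted p 0.0106). Clcn7, which encodes ClC-7 itself, rose from 13.9 ± 2.46 to 19.8 ± 1.44 TPM (0.49 ± 0.13, adjusted p 0.0431). The number that rose was 2, 1, 3 and 2 without wild-type set 1, wild-type set 2, mutant set 1 and mutant set 3, and 3 without mutant set 1 replicate 1. The number that fell was 0 without either wild-type set and 2 without mutant set 2 or wild-type set 2 replicate 1.

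In the vacuolar proton pump, which acidifies the lysosome, 6 of 17 genes rose and 0 fell at the adjusted threshold, with 8 (47.1%, against 34.9% of all genes) at an unadjusted p below 0.05, none of them lower. Atp6v0d1 rose from 64.5 ± 9.85 TPM to 114 ± 6.19 (log2 fold change 0.82 ± 0.11, adjusted p 0.00738) and Atp6v0b from 93.5 ± 10.5 to 154 ± 6.23 TPM (0.72 ± 0.09, adjusted p 0.00656). Tcirg1, the a3 subunit, had a value of 0.57 ± 0.15 (adjusted p 0.04), and its libraries overlapped. The count was 2, 0, 2 and 3 without wild-type set 1, wild-type set 2, mutant set 1 and mutant set 3, and 3 without mutant set 1 replicate 1 or mutant set 2 replicate 1.

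Enzyme sorting, by which hydrolases get their mannose 6-phosphate tag and reach the lysosome, had 3 genes that rose and 1 that fell of 9. These calls were 33.3% higher and 11.1% lower, beside 6.97% and 10.5% of all tested genes. At an unadjusted p below 0.05 were 6 (66.7%, against 34.9% of all genes), 2 of them lower. The receptors Sort1 (1.84 to 4.07 TPM, log2 fold change 0.83 ± 0.15, adjusted p 0.0167) and Igf2r (18.4 to 28.5 TPM, 0.60 ± 0.14, adjusted p 0.0313) rose. Gnptab, a subunit of the enzyme that adds the tag, fell from 14.2 to 9.33 TPM (-0.56 ± 0.12, adjusted p 0.0259). Gnptg, another subunit of that enzyme, rose from 12.6 to 16.5 TPM (0.36 ± 0.09, adjusted p 0.0407). The number that rose was 0 without either wild-type set or without mutant set 1, and 1 without mutant set 3 or without mutant set 1 replicate 1. The call of Gnptab was lost without any one of these 4 sets.

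In the list of mTORC1 and Rag control, 0 of 19 genes rose and 1 fell, with 4 (21.1%, against 34.9% of all genes) at an unadjusted p below 0.05, 1 of them lower, and a median of 0.04. The number that rose was 2 under median-of-ratios and 1 under quantile scaling. The gene that fell was Sesn1, a leucine-responsive inhibitor of mTORC1 signalling, at 16.1 ± 0.813 TPM in wild type and 10.7 ± 0.322 in mutant cells (log2 fold change -0.54 ± 0.09, adjusted p 0.0153). The number that fell was 0 without either wild-type set and 2 without mutant set 2. In 3 runs that left out 1 library (wild-type set 1 replicate 1, wild-type set 2 replicate 1 or mutant set 2 replicate 2), 1 gene of the list rose.

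In autophagy genes 2 of 21 rose and 3 fell (9.52% and 14.3%, beside 6.97% and 10.5% of all genes), with a median of 0.12. At an unadjusted p below 0.05 were 14 (66.7%, against 34.9% of all genes). By direction these were 42.9% higher and 23.8% lower, against 14.5% and 20.5% of all genes. Under median-of-ratios and quantile scaling 4 and 5 rose and 3 fell in both, so the balance of calls turned. The receptor Optn rose from 6.81 ± 0.778 TPM to 13.0 ± 3.56 (log2 fold change 0.82 ± 0.22, adjusted p 0.0461), with mutant set 2 again the lowest at 9.06 TPM. Gabarap, which binds such receptors on the autophagosome, rose from 84.5 ± 8.36 to 126 ± 4.75 TPM (0.58 ± 0.08, adjusted p 0.00962). Atg5, part of the conjugation machinery, fell from 23.5 ± 0.852 to 16.6 ± 0.346 TPM (-0.47 ± 0.09, adjusted p 0.017). Gabarapl2 and Map1lc3a, of the same protein family as Gabarap, also fell. Gabarapl2 went from 303 ± 2.43 to 229 ± 14.5 TPM (-0.40 ± 0.07, adjusted p 0.0164). Map1lc3a went from 25 ± 1.83 to 18.1 ± 1.85 TPM (-0.45 ± 0.11, adjusted p 0.036). The 2 that rose became 1, 0, 1 and 1 without wild-type set 1, wild-type set 2, mutant set 1 and mutant set 3. Without single libraries they became 4 (wild-type set 1 replicate 1) or 1 (wild-type set 1 replicate 2, wild-type set 2 replicate 2, mutant set 1 replicate 1, mutant set 2 replicate 2 or mutant set 3 replicate 1), and the 3 that fell became 0 without either wild-type set.

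**Figure D4:**
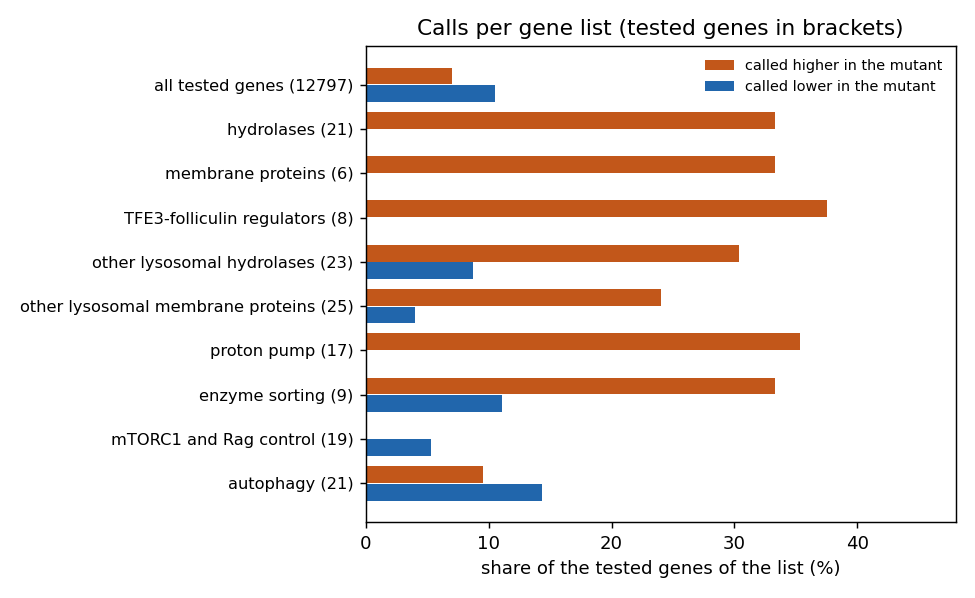
Share of tested genes (%) called higher (orange bars) or lower (blue bars) in mutant cells, for the hydrolases, membrane proteins and regulators and for the 6 further lists, beside all tested genes (number tested in brackets). All tested genes show 6.97% higher and 10.5% lower, and the hydrolases, membrane proteins and regulators show 33.3%, 33.3% and 37.5% higher.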

How the data were processed

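The authors deposited 1 table with TPM per gene and library. Trim Galore, STAR, RSEM, DESeq2 and the build mm10 are named, per the submitters' processing notes. Tool versions, the annotation and how strand was counted are not given in the sources used. All 10 columns were matched to samples by name, and 0 were left out. Libraries sum to 999999 to 1000001 TPM, so the depth is unknown, and TPM of one gene falls when abundant ones rise.

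TPM were converted to log2(TPM + 1). The 12797 genes whose mean reached 1 TPM were kept, the 2 libraries of a set were averaged, and limma 3.58.1 in R 4.3.3 compared 3 mutant with 2 wild-type sets (two-sided; eBayes with trend; degrees of freedom 3 residual, 4.01 prior; Benjamini-Hochberg, threshold 0.05). The fit was run on simulated data with independent noise, shuffled over genes, and known changes. That setting is simpler than these data, so it does not measure the error rate here. The 39 genes, the further lists and the tests were chosen with earlier results of these data known. Values in every library are given for the 10 called genes with the largest change and for all regulators, and each further list names up to 3 called genes by size of change, of which 1 is not reported here. The calls on Ostm1, Clcn7, Gnptg, Gabarapl2 and Map1lc3a, outside that rule, were named after their values were seen. One symbol of the membrane list, Tmem55b, had no row; it is an older name of Pip4p1, which is in the list. Gene positions and exon overlaps are from GENCODE M21 (GRCm38), promoters from RefSeq (GRCm38.p6). Alternatives were other pseudocounts, filters, scalings and variance models, all 10 libraries with and without blocks, and leaving out each set or library. A GC correction was added after seeing the data. Figures used matplotlib 3.10.9.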

Additional observations from a re-analysis of the deposited data

Results flagged for a closer look

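The levels of the 39 genes were searched for single libraries far from the rest of their genotype, in 78 groups of libraries. In 1 of them a library stood apart: Man2b1, the lysosomal alpha-mannosidase, was at 20.5 TPM in mutant set 1 replicate 2, and at 23.3 to 24.8 TPM in the other mutant libraries. With independent libraries, chance would give about 1 such library in 20 groups. The libraries here come in pairs within sets, so that rate need not hold. Man2b1 was not called.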

How the results depend on the processing

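Under 26 alternatives, 874 of 984 values of the tested genes kept their direction and side of the threshold, and none of the 12 genes that rose changed direction. In these 12 all mutant libraries lay above all wild-type libraries. Leaving out a set or library could therefore not reverse them, and their kept direction adds no support. All 12 lost their call without wild-type set 2 (adjusted p 0.0508 to 0.223), an analysis with 1 wild-type set in which all genes called higher went from 892 to 38 and the 12 kept log2 fold changes of 0.31 to 1.10. The number that rose was 7 with no filter on mean TPM, 22 with 10 libraries as replicates, 20 with set number and replicate as a block, and 0 to 14 when a set or library was left out (0 when wild-type set 2 was dropped, 7 when set 1 was). The number that fell was 2 with 10 libraries, 1 when sets entered as a random block, 3 with the set number and replicate block, and 0 to 1 with a set or library left out (Manba, without mutant set 2). The labels do not say that equal numbers pair the sets, and the deviations of the 4 library pairs that share both numbers correlated at -0.07 to 0.05. Over all genes, 39.8% of calls were higher, and 50.8% under median-of-ratios and under quantile scaling, with 15 and 16 of the 38 genes higher.

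Counts that rose in the further lists also moved. With no filter they were 1 of other hydrolases, 1 of other membrane proteins, 3 of the proton pump, 0 of enzyme sorting and 1 of autophagy. With no variance trend they were 3 of other hydrolases, 3 of the pump, 1 of sorting and 1 of autophagy. With 10 libraries they were 15 of other hydrolases, 4 of mTORC1 control and 9 of autophagy, and with the block 12, 3 and 6. With the GC correction they were 1 of mTORC1 control and 4 of autophagy. With a random block they were 2 and 5. Counts that fell were 4 of other membrane proteins, 2 of mTORC1 control and 5 of autophagy with 10 libraries. With the block they were 4 of other membrane proteins, 1 of the pump, 3 of sorting and 5 of autophagy. A random block gave 2 of other membrane proteins and 5 of autophagy, and no filter gave 0 of sorting and 1 of autophagy. Over all genes, 3.08% were called in either direction with no filter, 41.2% with 10 libraries, 39.4% with the block and 26.6% with a random block, against 17.5% in the comparison reported.

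The median of the hydrolases was 0.28 with no filter and 0.15 at a mean TPM of at least 5. The median of the membrane proteins was 0.45 at a pseudocount of 0.1 and 0.19 to 0.54 with a set or library left out. The median of the regulators was 0.50 with the GC correction and 0.20 to 0.57 with a set or library left out. Values near 0 changed sign. With the block Man2b1 was -0.0202, Lamp2 -0.0365 and Tfe3 0.064. With the GC correction Asah1 was 0.0147, Npc1 0.0031 and Mitf 0.0523. Mitf was 0.026 with median-of-ratios and 0.0016 with quantile scaling. With a set or library left out, Man2b1 ran from -0.0602 to 0.0614, Ppt1 from -0.0038 to 0.15, Lamp2 from -0.0365 to 0.0986, Tfe3 from -0.2751 to 0.064 and Mitf from -0.19 to 0.17. The unknown depth leaves counting error of low genes such as Naglu, Sgsh and Gpnmb unmeasured.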
